A study of Homo sapiens with 28 samples.

Results

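Interferon-stimulated genes are the genes that cells switch on when interferon reaches them, and their response to an inhibitor of DNA methylation was followed here, gene by gene, in 7 acute myeloid leukaemia (AML) cell lines. The members were 49 genes listed for their known induction by type I interferon, on a list drawn up with earlier results of these arrays known. A member was measured where a probe set of the deposited table named that gene alone, and of several probe sets the brightest by its mean on the 28 arrays stood for the gene. This gave 46 of 49 members among 11676 genes in all; STAT2, HELZ2 and IFI27 were not analysed here. Of the 46, 30 had 1 probe set and 16 had several. Calls in single lines often rested on the probe set used: with limma fitted to all probe sets and adjusted over them, the 16 members had 37 calls over the 7 lines, of which 21 were called the same way on at least 1 other probe set of the gene and 16 on none. In GDM1 this was 13 of 15 and 2, in SKM1 3 of 7 and 4, and in THP1 3 of 9 and 6.

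The lines, established cultures of leukaemic myeloid cells, were GDM1, MOLM13, NOMO1, SHI1, SKM1, SKNO1 and THP1. Each was grown for 96 hours (4 days) either with 0.1% DMSO, the vehicle, or with 1 µM GSK3484862, written GSK862 in the sample titles, which inhibits DNMT1, the maintenance DNA methyltransferase. Each of the 14 groups held 2 arrays (Affymetrix Human Genome U133 Plus 2.0) that the series design calls biological duplicates, and no line received interferon or an inactive relative of the compound. Each line has 1 genetic background, so the lines are 7 models and not replicates of a condition. The leukocyte marker PTPRC (at least 11.2 in DMSO) and the myeloid factor SPI1 (between 8.89 and 10.2) had signal in all lines. Other myeloid markers were low in some lines: in DMSO ANPEP read 2.26 in MOLM13 and 2.75 in GDM1. CD14 read 2.13, the lowest value, in DMSO in GDM1, MOLM13, SKM1 and SKNO1. The stromal marker COL1A1 read 9.2 to 9.6 in DMSO, so such levels alone do not show cell identity. CD3D, a T cell receptor subunit, reached 14.6 in GDM1 DMSO, and CD33 was not analysed here.

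Type I interferons bind a receptor that activates the kinases JAK1 and TYK2, which phosphorylate STAT proteins. STAT2 and IRF9 are parts of ISGF3, a complex that enters the nucleus. It binds a DNA motif called the interferon-stimulated response element (ISRE) in the promoters of many interferon-stimulated genes. Their products degrade or trap viral RNA, block viral entry and assembly, present the ubiquitin-like protein ISG15 on other proteins, or feed back on the pathway. DNMT1 copies methylation at CG dinucleotides onto new DNA strands, and inhibitors of DNA methylation are known to raise genes of this class in several kinds of cancer cell.

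Promoters from 250 bases before to 50 bases after the start site were available for 37 of the 46 measured members in RefSeq (GRCh38.p14), 49 promoters in all. The ISRE core GAAANNGAAA was searched on both strands; it was found in 32 of the 49 promoters (65.3%) and in 1255 of all 35116 promoters of the same length (3.57%). The core of the STAT site, TTCNNNGAA, which reads alike on both strands, was found in 12 of the 49 (24.5%) and in 2689 of all (7.66%), and it can overlap an ISRE core. The 4 members with the largest average change among those with an entry are printed whole, 5′ to 3′ in the direction of the gene, with every ISRE core in capitals, because they differ in the number, strand and setting of the core.
LGALS3BP (chr17:78979874-78980173, minus strand): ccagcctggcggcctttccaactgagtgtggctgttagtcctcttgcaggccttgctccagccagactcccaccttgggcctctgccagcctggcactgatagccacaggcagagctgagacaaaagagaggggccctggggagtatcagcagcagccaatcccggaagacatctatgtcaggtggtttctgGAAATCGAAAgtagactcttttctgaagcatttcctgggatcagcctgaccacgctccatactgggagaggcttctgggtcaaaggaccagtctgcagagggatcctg
IFI44L (chr1:78620198-78620497, plus strand): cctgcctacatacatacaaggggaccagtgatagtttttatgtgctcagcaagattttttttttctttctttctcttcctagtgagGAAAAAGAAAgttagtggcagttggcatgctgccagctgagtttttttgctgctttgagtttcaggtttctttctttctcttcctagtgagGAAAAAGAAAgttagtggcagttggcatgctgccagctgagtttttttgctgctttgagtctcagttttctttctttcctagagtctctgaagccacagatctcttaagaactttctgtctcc
EPSTI1 (chr13:42992192-42992491, minus strand): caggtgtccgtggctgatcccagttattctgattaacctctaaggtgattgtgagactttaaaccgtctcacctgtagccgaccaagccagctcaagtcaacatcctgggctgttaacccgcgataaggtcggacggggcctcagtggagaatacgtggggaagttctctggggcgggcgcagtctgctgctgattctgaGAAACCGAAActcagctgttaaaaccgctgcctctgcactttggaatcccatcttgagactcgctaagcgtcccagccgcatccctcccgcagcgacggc
IFIT1 (chr10:89392373-89392672, plus strand): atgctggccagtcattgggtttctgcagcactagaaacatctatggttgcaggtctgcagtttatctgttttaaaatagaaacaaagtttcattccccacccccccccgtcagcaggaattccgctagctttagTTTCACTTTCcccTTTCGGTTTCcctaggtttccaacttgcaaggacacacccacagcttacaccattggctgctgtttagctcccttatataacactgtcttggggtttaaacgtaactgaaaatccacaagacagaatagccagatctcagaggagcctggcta
LGALS3BP and EPSTI1 held 1 core each, IFI44L held 2 set apart on its own strand, and IFIT1 held 2 close together on the opposite strand. CG dinucleotides numbered 4 in LGALS3BP, 0 in IFI44L, 18 in EPSTI1 and 4 in IFIT1. The median was 9 over all member promoters and 14 over all promoters. The promoters with the largest changes therefore ranged from free of CG to above that median. Methylation was not measured here.

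Shorter stretches around the core are shown for members that return in the results. They are ISG15, whose 2 cores overlap, IFITM1, which was called in 5 lines, and MX1, with its core just after the start site. Also shown are GBP1, whose signal was too low to measure a change in any of the 7 lines, and the shared site of DTX3L and PARP9.
ISG15 (chr1:1013372-1013411, plus strand): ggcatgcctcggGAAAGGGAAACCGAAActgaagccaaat
IFITM1 (chr11:313988-314055, plus strand): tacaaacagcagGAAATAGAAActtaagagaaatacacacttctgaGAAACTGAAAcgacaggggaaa
MX1 (chr21:41420557-41420590, plus strand): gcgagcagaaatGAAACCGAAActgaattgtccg
GBP1 (chr1:89065314-89065347, minus strand): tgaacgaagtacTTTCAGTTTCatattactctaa
DTX3L (chr3:122564320-122564353, plus strand): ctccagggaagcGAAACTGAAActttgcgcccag
PARP9 (chr3:122564320-122564353, minus strand): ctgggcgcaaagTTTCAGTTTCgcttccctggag
DTX3L and PARP9 are transcribed away from each other, and the same core lay in both windows, read on opposite strands. Of the 28 members with an ISRE core in a promoter 26 rose on average over the lines, with a median change of 0.56. GBP1, too low to measure, was among those that did not. Of the 9 with an entry but no core 8 rose, with a median of 0.51. The members without a core in these windows were IRF9, XAF1, IFI35, OAS1, SAMD9L, HERC6, UBE2L6, CMPK2 and SP110.

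Signals are log2 values from 2.13, the lowest value on every array and called the floor here, up to 16.8; a difference of 1 is a doubling. Array medians lay between 8.33 and 8.51. Across genes, which are not replicates, the duplicates of a group had r between 0.990 and 0.998, and the SD of 1 array within its group was 0.161 in SHI1 DMSO, 0.305 in SKM1 GSK862 and between these in the other groups. The 2 arrays per group limit the precision. Low values carried little order: of 395 member values under 6, 183 recurred exactly on another array, against 12 of 893 values of 6 or more. Of 322 pairs of a member and a line, 51 had both group means below 3, called near the floor here, where neither a level nor a change could be measured. Probe sets differ in brightness, so the levels of different genes are not set against each other.

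On average over the 7 lines the inhibitor raised most of the members. Changes were tested as GSK862 minus DMSO with limma, with Benjamini-Hochberg adjustment over all 11676 genes; "called" means an adjusted p under 0.05, and errors are standard errors of that fit. Of 46 members 40 were called higher, where 23.2% of all genes were, and 0 were called lower, where 28.6% of all genes were; at an unadjusted p under 0.05 the limma counts were 41 and 0. The members' median change was 0.56 and that of all genes -0.02. The average was above 0 for 45 members, and 11 of those called had at least doubled. The share of all genes that at least doubled was not counted, here or in single lines. In bulk RNA a change in every cell and a change in the share of cells cannot be told apart, as fewer cells of a type and less RNA per cell give the same signal. The 7 lines contributed unequally: without GDM1, 28 members were called higher, where 20.9% of all genes were, and 1 lower, where 25.0% were. The members not called on average were USP18, HERC5, OASL, GBP1, LY6E and CMPK2.

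**Figure D1:**
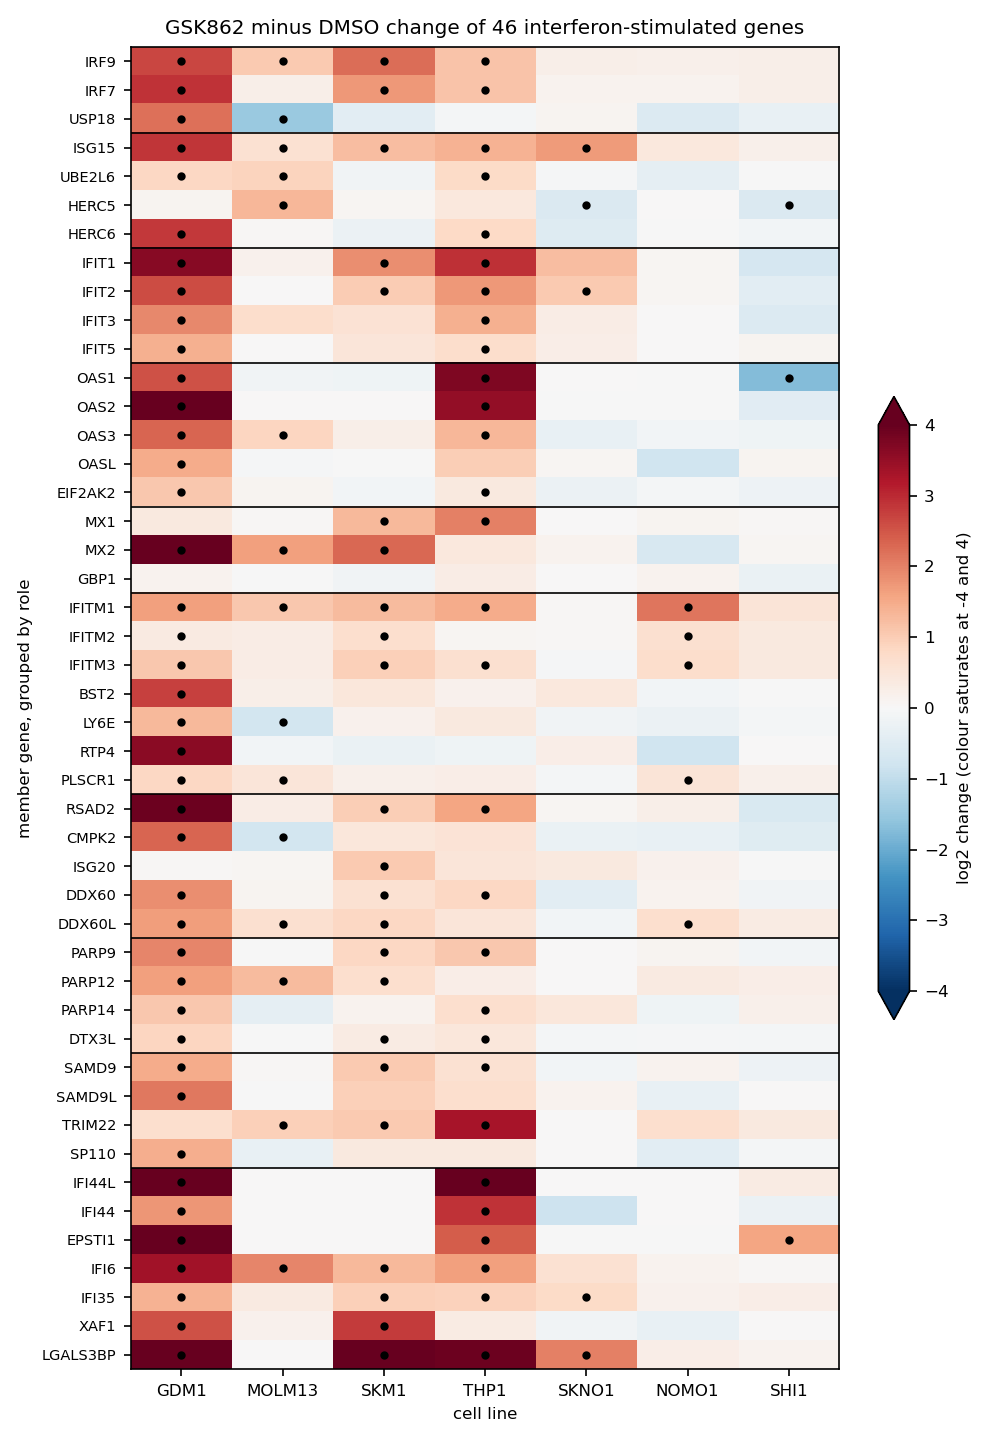
Log2 change, GSK862 minus DMSO, of the 46 measured members (rows, grouped by role) in the 7 lines (columns), each from 2 arrays per group. Black dots mark an adjusted p under 0.05 in limma. The GDM1 column is red for nearly every row with 41 dots, while SHI1 has 3 dots.

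The genes that carry the signal came first in the order of roles. IRF9, the DNA-binding part of ISGF3, rose by 1.11 ± 0.09 on average (adjusted p = 9.09e-08, limma). Its DMSO arrays read 8.92 and 9.56 in GDM1, 6.70 and 7.20 in MOLM13, 5.34 and 6.07 in SKM1, and 8.42 and 8.79 in THP1. The GSK862 arrays of these lines read 11.72 and 12.09, 7.89 and 8.10, 7.88 and 7.99, and 9.64 and 9.82 in the same order. Both treated arrays lay above both DMSO arrays in each of these 4 lines, and all 4 changes were called, from 1.05 ± 0.25 in MOLM13 to 2.67 ± 0.25 in GDM1. The 12 arrays of SKNO1, NOMO1 and SHI1 lay between 7.48 and 9.46, with changes of 0.20 to 0.24 that were not called. Treated arrays lay above the DMSO arrays in SKNO1 and NOMO1 too, and overlapped with them in SHI1.

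IRF7, the factor that amplifies transcription of interferon genes and is itself induced by interferon, rose by 0.93 ± 0.08 on average. It read 7.54 and 7.81 in GDM1 DMSO and 10.48 and 10.67 after GSK862, a change of 2.90 ± 0.22. In SKM1 the arrays read 7.53 and 7.34 against 9.51 and 8.81, and in THP1 7.54 and 7.79 against 8.62 and 9.01. These 3 lines were the called ones. The 16 arrays of MOLM13, SKNO1, NOMO1 and SHI1 lay between 7.08 and 8.81, with changes from 0.14 to 0.23. The DMSO levels of IRF7 spanned only 1.16 between the lowest line, SKNO1, and the highest, SHI1, and after GSK862 the lines spanned 3.34.

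USP18, a protease that removes ISG15 from proteins and dampens signalling at the interferon receptor, did not follow the other members of its group. It rose in GDM1, from 8.38 and 8.40 to 10.57 and 10.64 (2.22 ± 0.39), and fell in MOLM13, from 6.46 and 6.74 to 4.54 and 5.72. That fall by 1.47 ± 0.39 (adjusted p = 0.00864, limma) was the largest of 3 called falls in that line. In SKM1, THP1, NOMO1 and SHI1 its changes lay between -0.56 and -0.08 and were not called, and in SKNO1 it was near the floor. The average of -0.07 ± 0.15 was not called. It was 0.16 without MOLM13, and without GDM1 it was -0.46 and called lower (adjusted p = 0.0385, limma).

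ISG15 and the enzymes that attach it were the second group, with 3 of 4 members higher on average. ISG15, the ubiquitin-like modifier, was called in 5 lines, as many as IFITM1 and more than the other members. In GDM1 it read 11.54 and 11.89 in DMSO and 14.37 and 14.74 after GSK862, a change of 2.85 ± 0.15 or 7.19-fold. SKNO1, which had the lowest DMSO level, went from 8.13 and 7.71 to 9.70 and 9.54, a change of 1.70 ± 0.15. The called changes were 1.38 in THP1, 1.23 in SKM1 and 0.60 in MOLM13. In the plot of signal on every array both treated arrays of ISG15 lay above both DMSO arrays in all 7 lines. NOMO1 (10.51 and 10.69 against 10.93 and 11.10) and SHI1 (12.13 and 12.17 against 12.40 and 12.28) were not called. SHI1 had the highest DMSO level of ISG15 and the smallest change, 0.19.

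UBE2L6, the conjugating enzyme for ISG15, rose in GDM1 (0.83), MOLM13 (0.88) and THP1 (0.77) and on average by 0.28 ± 0.07. HERC5, the main human ligase for ISG15, was the exception. It was near the floor in GDM1 and NOMO1, so in the line with the highest ISG15 after GSK862 HERC5 could not be measured. It rose in MOLM13, from 3.10 and 2.96 to 4.04 and 4.66 (1.32 ± 0.14). It fell in SKNO1, from 9.99 and 9.79 to 9.22 and 9.40, by 0.58, and in SHI1, from 9.40 and 9.43 to 8.93 and 8.72, by 0.59. Its average of 0.11 was not called and was -0.10 without MOLM13. HERC6, a relative of HERC5, rose in GDM1 by 2.83 ± 0.22 and in THP1 by 0.78; without GDM1 its average was -0.0060.

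**Figure D2:**
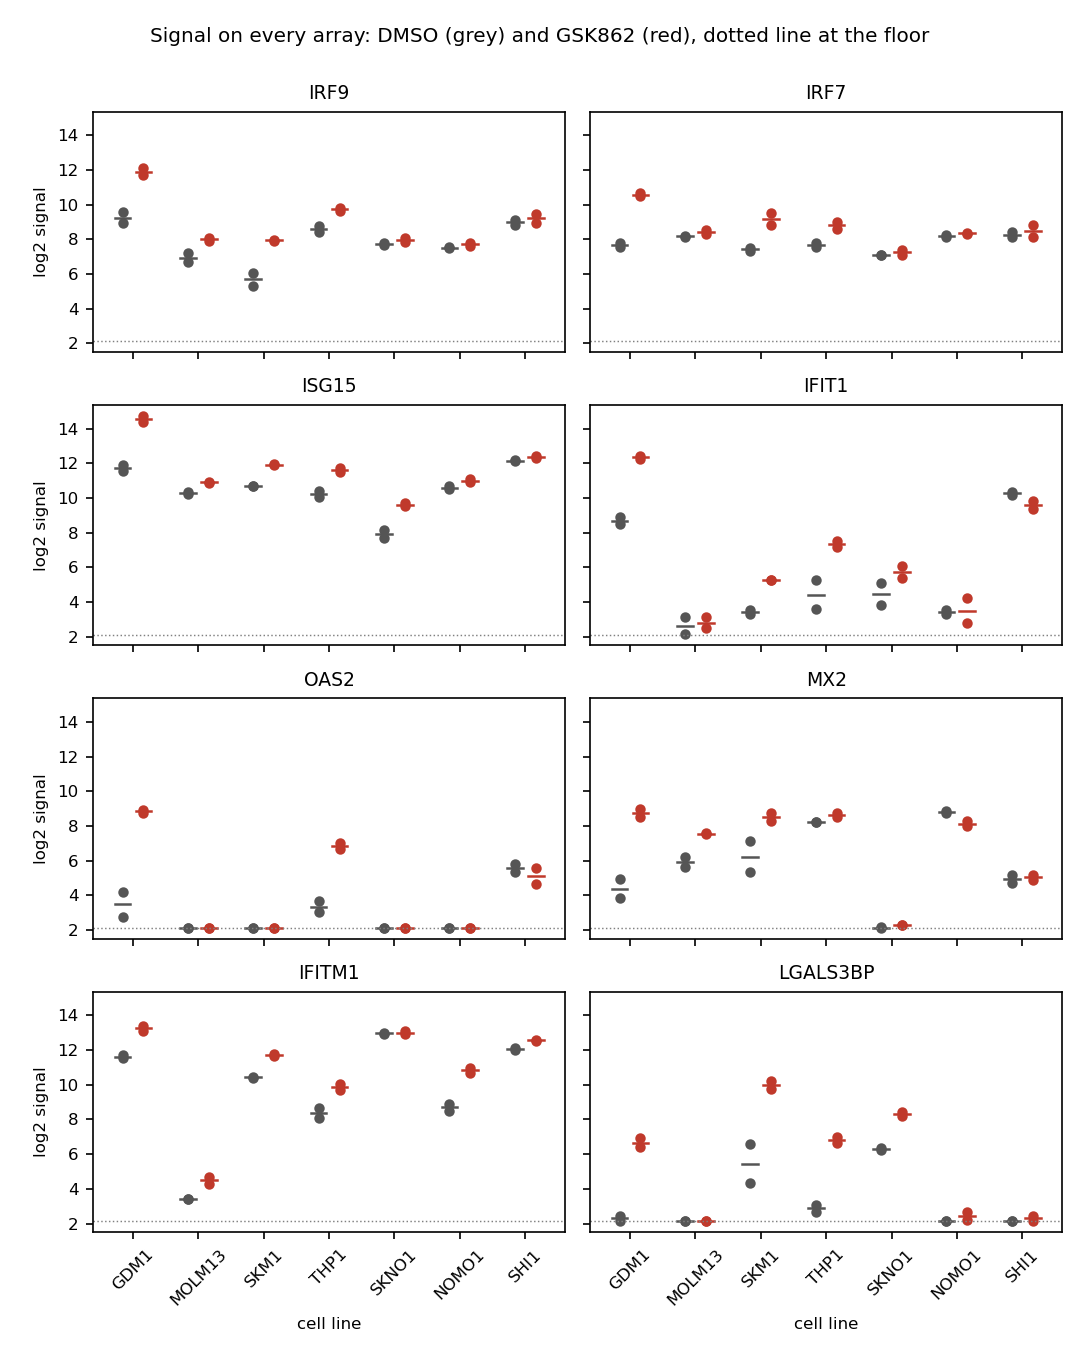
Log2 signal of 8 members on each of the 28 arrays, by line; grey points are DMSO arrays, red points GSK862 arrays, short bars the means of 2 arrays, and the dotted line the floor at 2.13. ISG15 is separated in all lines, whereas OAS2 is at the floor in 4 lines.

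All 4 measured members of the IFIT family, proteins that bind foreign RNA ends and stop their translation, rose on average. On the probe sets used all 4 were called in GDM1 and in THP1. IFIT1 changed most, by 1.32 ± 0.20 on average. In GDM1 it read 8.48 and 8.92 against 12.25 and 12.44, a 12.5-fold rise. THP1 went from 3.60 and 5.26 to 7.20 and 7.52, and SKM1 from 3.31 and 3.52 to 5.26 and 5.27. In SHI1 IFIT1 started highest, at 10.20 and 10.36, and read 9.80 and 9.40 after GSK862, below both DMSO arrays but not called. SKNO1 read 5.10 and 3.82 against 5.37 and 6.05 and was not called. MOLM13 and NOMO1 stayed between 2.14 and 4.21 on all 8 arrays, with overlap between treatments.

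IFIT2 was called in GDM1 (2.61 ± 0.23), THP1 (1.75), SKNO1 (1.06) and SKM1 (1.02), and its second probe set was called in GDM1 (2.87) but not in THP1 (0.81), SKNO1 (0.56) or SKM1 (0.07). IFIT3 rose in GDM1 by 1.93 ± 0.39 and in THP1 by 1.42, and its average of 0.63 missed the threshold without GDM1. IFIT5 rose in GDM1 by 1.41 and in THP1 by 0.71. The second probe sets of IFIT3 and IFIT5 were called in GDM1 (2.54 and 2.05) but not in THP1 (0.44 and 0.11). In MOLM13 the 4 arrays of IFIT5 held 1 repeated value of 4.82 on the probe set used, a low value rather than a measured level. In SHI1 IFIT1, IFIT2 and IFIT3 all had both treated arrays below both DMSO arrays, with changes of -0.67, -0.42 and -0.56 that were not called.

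Of the 5 members grouped with the enzymes that sense double-stranded RNA 4 rose on average. OAS1, OAS2 and OAS3 make the messenger oligoadenylate that activates RNase L, and their genes are neighbours on chromosome 12. OAS2 rose in GDM1, from 2.77 and 4.22 to 8.78 and 8.91, and in THP1, from 3.05 and 3.65 to 6.67 and 7.04. These were changes of 5.35 ± 0.34 and 3.50 ± 0.34. In MOLM13, SKM1, SKNO1 and NOMO1 all 16 arrays read 2.13 or 2.14, so no change could be measured, and in SHI1 the arrays overlapped (5.36 and 5.80 against 5.58 and 4.68). Both other probe sets of OAS2 were called in GDM1, the weaker at 1.63, and in THP1 they changed by 1.27, called, and 0.57, not called.

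OAS1 had the smallest F-test p of the members for a change that differed between lines (adjusted p = 1.7e-07, limma). It rose in THP1, from 3.57 and 4.47 to 7.49 and 8.03 (3.74 ± 0.26), and in GDM1, from 8.34 and 8.51 to 11.09 and 10.82 (2.54 ± 0.26). In SHI1 it fell, from 5.17 and 5.20 to 2.98 and 3.90, by 1.75 ± 0.26 (adjusted p = 8.08e-04, limma). The second probe set of OAS1 changed by -0.37 in SHI1 and did not pass the test there. In the remaining 4 lines OAS1 was near the floor, between 2.49 and 2.91. Its average of 0.60 was called, but was 0.28 without GDM1 and 0.08 without THP1, and was then not called. OAS3 rose in GDM1 (2.31), THP1 (1.33) and MOLM13 (0.86). OASL, which stays low here, was called in GDM1 only (1.47, from 2.15 and 2.13 to 3.61 and 3.61), with an average of 0.25 that was not called; its second probe set was called in THP1 (1.32) and not in GDM1 (0.57). EIF2AK2, the kinase PKR, was bright in every line and rose in GDM1 (1.07 ± 0.11) and THP1 (0.40, where neither of its other probe sets was called); its average of 0.14 was -0.02 without GDM1.

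The GTPases split. MX2, which sits at nuclear pores and restricts retroviruses, rose on average by 1.19 ± 0.16 and was called in GDM1, MOLM13 and SKM1. It read 3.87 and 4.93 against 8.52 and 8.97 in GDM1 (4.34 ± 0.42), 5.62 and 6.22 against 7.59 and 7.55 in MOLM13, and 5.34 and 7.13 against 8.32 and 8.77 in SKM1. NOMO1 had the highest DMSO level, 8.74 and 8.85, and read 8.26 and 8.02 after GSK862, a change of -0.65 that was not called. THP1 (8.23 and 8.23 against 8.54 and 8.75) and SHI1 (4.71 and 5.20 against 4.89 and 5.20) were not called, and SKNO1 was near the floor. MX1, which blocks influenza and other RNA viruses, was called in THP1 (2.02 ± 0.20) and SKM1 (1.30 ± 0.20). In GDM1 MX1 was near the floor on all 4 arrays (2.18 and 2.27 against 2.52 and 2.71), the line where 41 other members were called. GBP1, better known as a target of interferon gamma, was near the floor in all 7 lines and was called in none.

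Of 7 membrane proteins 6 rose on average, and all 7 were called in GDM1. The IFITM proteins stop enveloped viruses from fusing with endosomes, and their genes are neighbours of near-identical sequence on chromosome 11, so their probe sets may share signal. IFITM1 was called in 5 lines. NOMO1 changed most, from 8.51 and 8.88 to 10.69 and 10.99 (2.15 ± 0.19). GDM1 went from 11.53 and 11.71 to 13.11 and 13.39, THP1 from 8.06 and 8.69 to 9.68 and 10.06, and SKM1 from 10.40 and 10.44 to 11.77 and 11.63. MOLM13, far lower, went from 3.40 and 3.41 to 4.70 and 4.27. SKNO1 already stood at 12.98 and 12.94 in DMSO and read 13.07 and 12.95 after GSK862. SHI1 read 12.02 and 12.12 against 12.61 and 12.55, which was not called.

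IFITM3 and IFITM2 were bright in all lines and rose by 0.57 ± 0.06 and 0.35 ± 0.04 on average. In NOMO1 IFITM3 read 11.02 and 11.21 against 11.66 and 11.97, a change of 0.70 ± 0.17. PLSCR1, a phospholipid scramblase, rose in GDM1 (0.84), NOMO1 (0.51) and MOLM13 (0.47), and on another probe set in THP1 too (0.43). BST2, or tetherin, which holds budding virions at the membrane, was called in GDM1 only, from 8.93 and 8.99 to 11.45 and 11.96 (2.75 ± 0.29), and its average of 0.55 fell to 0.19 without GDM1 and was not called. RTP4 was likewise called in GDM1 only (3.60 ± 0.28, from 4.58 and 4.63 to 8.07 and 8.34), with an average of -0.18 without that line. LY6E, which limits coronavirus entry, rose in GDM1 (1.30) and fell in MOLM13, from 10.34 and 10.52 to 9.55 and 9.86, by 0.72.

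Of 5 measured enzymes of nucleotides and nucleic acids 4 rose on average. RSAD2, or viperin, makes a chain-terminating nucleotide, and rose by 0.93 ± 0.12. It read 5.00 and 5.59 against 9.09 and 9.32 in GDM1 (3.91 ± 0.32), 7.00 and 7.31 against 8.59 and 8.90 in THP1, and 4.55 and 4.24 against 5.62 and 5.14 in SKM1. These 3 lines were called, SKM1 not on the second probe set (0.61). SKNO1, where RSAD2 stood highest, read 10.60 and 10.69 against 10.71 and 10.74, and in MOLM13, NOMO1 and SHI1 the arrays lay between 3.72 and 5.78 and no change was called. CMPK2, a nucleotide kinase, is transcribed away from RSAD2, and their promoter windows overlap on chromosome 2 (chr2:6865635-6865934 on the plus strand and chr2:6865770-6866069 on the minus strand). CMPK2 rose in GDM1 by 2.33 ± 0.23 and fell in MOLM13, from 9.07 and 9.02 to 8.38 and 8.21, by 0.74 ± 0.23, and was called in no other line. The pair thus shared its highest DMSO line, SKNO1, and its largest change, in GDM1, but in MOLM13 the changes were 0.31 and -0.74.

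ISG20, an exonuclease, was near the floor in 6 lines and was called in SKM1 only, from 3.22 and 4.13 to 4.71 and 4.76 (1.06 ± 0.26). The helicase gene DDX60 rose in GDM1 (1.85), THP1 (0.82) and SKM1 (0.59). Its relative DDX60L rose in GDM1 (1.68), SKM1 (0.84), NOMO1 (0.68) and MOLM13 (0.64), but it was the 1 member with a probe set of opposite sign: the second probe set changed by -0.12 on average, by -0.50 in MOLM13 and by -0.58 in NOMO1, both called, and was not called in GDM1 or SKM1. Of 23 further probe sets of members 22 had the sign of the one used on average.

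All 4 members of the PARP group rose on average. PARP12, a mono-ADP-ribosyltransferase, changed most, by 0.64 ± 0.05. It read 7.92 and 7.94 against 9.51 and 9.63 in GDM1, 6.40 and 6.39 against 7.60 and 7.75 in MOLM13, and 9.11 and 9.08 against 9.84 and 9.66 in SKM1. In the other 4 lines its changes lay between 0.02 and 0.35 and were not called. PARP9 and DTX3L form a complex that ubiquitinates histones, and start at the shared site printed above. PARP9 changed by 1.94, 0.83 and 1.08 in GDM1, SKM1 and THP1, and DTX3L by 0.86, 0.34 and 0.44; these were the called lines of both, and elsewhere both lay between -0.11 and 0.12. The second, dimmer probe set of PARP9 was called in GDM1 (2.57) but not in SKM1 or THP1 (0.19). PARP14 rose in GDM1 (1.07) and THP1 (0.67).

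SAMD9, SAMD9L, TRIM22 and SP110 all rose on average. TRIM22, a ubiquitin ligase that restricts retroviruses, rose by 1.02 ± 0.11 and was the 1 of these whose largest change was not in GDM1. In THP1 it went from 4.54 and 5.63 to 8.30 and 8.50 (3.31 ± 0.30). SKM1 read 9.82 and 9.33 against 11.12 and 10.13, and MOLM13 11.62 and 11.43 against 12.59 and 12.38, both called. GDM1, highest in DMSO, read 12.48 and 12.55 against 13.19 and 13.21 and did not pass (0.69 ± 0.30, limma adjusted p = 0.0892), nor did NOMO1 (9.29 and 9.31 against 10.01 and 9.97) or SHI1 (7.22 and 6.96 against 7.72 and 7.26). SKNO1 overlapped, at 9.80 to 9.90. SAMD9, a restriction factor for poxviruses, rose in GDM1 (1.49), SKM1 (1.05) and THP1 (0.61, but 0.49 and not called on its second probe set). SAMD9L and the nuclear body protein SP110 were called in GDM1 only on the probe sets used (2.11 and 1.47), and their averages of 0.51 and 0.21 were 0.24 and 0.0005 without it. SP110 had 5 probe sets, of which 1 was called higher also in SKM1 (0.86) and THP1 (0.94), and 2 were called lower in NOMO1 (-0.71 and -0.69).

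All 7 measured members of the last group, with varied functions, rose on average. LGALS3BP, a secreted glycoprotein that binds galectins, had the largest average of the members, 2.19 ± 0.17. SKM1 went from 4.32 and 6.58 to 9.77 and 10.24, GDM1 from 2.15 and 2.45 to 6.39 and 6.95, THP1 from 2.69 and 3.06 to 6.62 and 6.99, and SKNO1 from 6.24 and 6.36 to 8.42 and 8.21. All 4 were called, with changes of 4.56, 4.37, 3.93 and 2.02 (each ± 0.45). The 12 arrays of MOLM13, NOMO1 and SHI1 lay between 2.13 and 2.69, near the floor. DMSO duplicates of LGALS3BP in SKM1 differed by 2.26, the widest gap of any member in any group.

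IFI44L, a paralogue of IFI44, was at the floor on all 4 arrays of MOLM13, SKM1, SKNO1 and NOMO1. In GDM1 it went from 3.73 and 5.82 to 10.66 and 11.07 (6.09 ± 0.47), and in THP1 from 2.13 and 2.13 to 6.22 and 7.12 (4.54 ± 0.47), a size limited by the floor. SHI1 read 2.54 and 2.89 against 3.68 and 2.42, with overlap. EPSTI1, first described as induced in epithelium by stroma, read 2.13 on every array of the same 4 lines. It went from 2.13 and 2.36 to 7.83 and 8.41 in GDM1 (5.87 ± 0.32), from 4.62 and 5.82 to 7.43 and 7.84 in THP1, and from 3.01 and 3.05 to 5.19 and 4.03 in SHI1 (1.58 ± 0.32, limma adjusted p = 0.00975). The error of EPSTI1 is shared by all lines, and its arrays at the floor add almost no spread to it. IFI44, next to IFI44L on chromosome 1, read 2.13 throughout MOLM13, SKM1 and NOMO1 and rose in THP1 (2.88) and GDM1 (1.76).

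XAF1, a proapoptotic partner of the apoptosis inhibitor XIAP, rose in SKM1, from 2.87 and 2.13 to 5.38 and 5.21 (2.80 ± 0.19), and in GDM1, from 9.58 and 9.87 to 12.27 and 12.29 (2.56 ± 0.19). In THP1 it read 10.12 and 10.36 against 10.48 and 10.68, and in MOLM13 11.23 and 11.08 against 11.29 and 11.35. NOMO1 (10.07 and 10.18 against 9.86 and 9.78), SKNO1 (8.38 and 8.67 against 8.18 and 8.57) and SHI1 (10.06 and 9.90 against 10.02 and 10.00) were not called either. Of its other probe sets the better lit one changed by 1.54 in SKM1, and the dimmest by 0.01, so the size of the SKM1 change depended on the probe set; the dimmest was called in THP1 (1.15). IFI6, a mitochondrial antiapoptotic protein, rose in GDM1 (3.35), MOLM13 (1.97), THP1 (1.63) and SKM1 (1.30). In MOLM13 it went from 4.79 and 5.43 to 7.17 and 6.99, the largest change of a member there. IFI35 rose in GDM1 (1.39), SKM1 (0.96), THP1 (0.92) and SKNO1 (0.76).

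**Figure D3:**
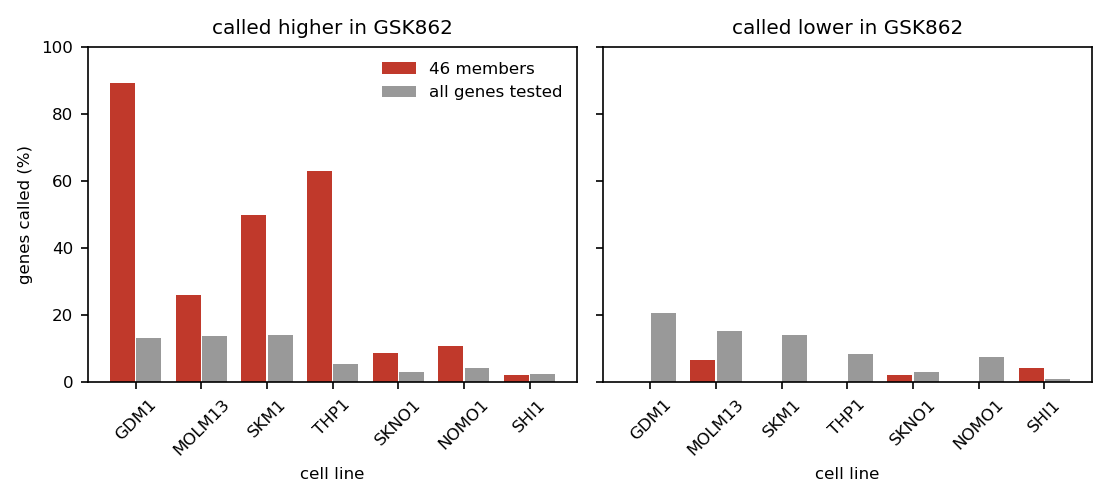
Share of the 46 members (red) and of all 11676 genes (grey) called higher (left) and lower (right) after GSK862 in each line, in percent. In GDM1 89.1% of members against 13.3% of all genes were called higher, and in SHI1 2.17% against 2.52%.

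The lines responded differently. The change differed between lines for 44 of 46 members by the moderated F-test, where 37.5% of all genes did; ISG20 and GBP1 did not pass. Next to OAS1 the smallest adjusted p-values were those of XAF1 (1.7e-07), EPSTI1 (2.78e-07), OAS2 (2.80e-07), ISG15 (1.58e-06) and IFI44L (3.16e-06). OAS1, EPSTI1, OAS2 and IFI44L were near the floor in both groups of 4 lines. Those arrays add little spread to the error that all lines share, so these p-values and their order may be too favourable. The largest change of a member was in GDM1 for 34 members, in THP1 for 5, in SKM1 for 4, in MOLM13 for 2 and in NOMO1 for 1. No member was called higher in more than 5 lines; 2 were called in 5, 7 in 4, 15 in 3, 11 in 2, 10 in 1 and 1, GBP1, in none, and 67.6% of all genes were called higher in none. When the 7 lines were taken as the units of the test, 4 members passed, where 2.54% of all genes were called higher (IFITM1, IFI35, IFITM3 and IFITM2, limma adjusted p from 0.0404 to 0.0493), and 17 at an unadjusted p under 0.05. The IFITM probe sets may share signal, so these are not independent passes. All 4 were read from probe sets ending in _x_at or _s_at, which an alternative below leaves out.

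GDM1 had the widest response. Of 46 members 41 were called higher (13.3% of all genes) and 0 lower (20.5% of all genes; 0 at an unadjusted p under 0.05, limma), the median change was 1.89, and 37 of those called had at least doubled. Both treated arrays lay above both DMSO arrays for 43 members (28.2% of all genes). Those not called higher were HERC5, MX1, GBP1, ISG20 and TRIM22, 4 of them near the floor in DMSO. Set against the mean of the other 6 lines the change in GDM1 was higher for 39 members (8.88% of all genes) and lower for 0 (14.2%; 0 at an unadjusted p under 0.05, limma). The excess was 5.28 ± 0.50 for IFI44L, 5.21 ± 0.35 for EPSTI1 and 4.84 ± 0.36 for OAS2, but 4 of the other 6 lines were near the floor in both groups for these members, so the size and order of these excesses are bound to the floor. Fitted on its own 4 arrays GDM1 again had 41 members called higher, with 2349 genes called of all in either direction. The second replicate read higher than the first for 37 members in DMSO and for 39 after GSK862.

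THP1 came next, with 29 members called higher (5.40% of all genes) and 0 lower (8.30%; 0 at an unadjusted p under 0.05, limma), and a median change of 0.78. Both treated arrays were above both DMSO arrays for 42 members (26.2% of all genes). Against the other 6 lines 8 members changed more (1.42% of all genes), OAS1 (3.66 ± 0.28), IFI44L (3.47), IFI44, OAS2, TRIM22, LGALS3BP, MX1 and IFIT2 (OAS1, IFI44L and OAS2 were near the floor in 4 of those lines), and 0 less (2.30%; 3 at an unadjusted p under 0.05, limma). The second replicate read higher than the first for 43 members in DMSO and 42 after GSK862. The count rested on single arrays: it was 18 without the first DMSO array and 19 without the second GSK862 array. Fitted on its own 4 arrays THP1 had 0 members called by limma and 34 higher at an unadjusted p under 0.05, with 2 genes called of all. Of the 29 members 27 were also called in GDM1, which is 93.1% of the THP1 list and 65.9% of the GDM1 list. In GDM1 89.1% of all 46 members were called higher, so an overlap near that share says little about single members.

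In SKM1 23 members were called higher (14.1% of all genes) and 0 lower (14%; 0 at an unadjusted p under 0.05, limma), with a median change of 0.59. Of the 23, 20 were also called in GDM1 (87.0% of the SKM1 list, 48.8% of the GDM1 list) and 17 in THP1 (73.9% of the SKM1 list, 58.6% of the THP1 list). Of all 46 members 89.1% were called higher in GDM1 and 63.0% in THP1, the shares to set these overlaps against. Arrays did not overlap for 29 members with the treated ones above (25.5% of all genes). The change exceeded that of the other 6 lines for LGALS3BP (2.77 ± 0.48), XAF1 (2.36 ± 0.20), IRF9, IRF7, MX1 and SAMD9, 6 members (7.25% of all genes). It was below for 4 (4.83%), OAS1, OAS2, EPSTI1 and IFI44L, all near the floor in SKM1 before and after treatment. On its own 4 arrays SKM1 had 0 members called by limma, with 53 genes called of all. At an unadjusted p under 0.05 (limma) 18 members were higher there. All lines shared 1 estimate of the spread per gene, and the duplicates of SKM1 were the widest.

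MOLM13 had 12 members called higher (13.7% of all genes) and 3 lower (15.4%), USP18, CMPK2 and LY6E; the share higher was 26.1% of members. Without the second DMSO array or the first GSK862 array of MOLM13 1 was lower. On the line's own 4 arrays 7 were higher and 1 lower, with 2056 genes called of all in either direction. The median change was 0.09, and both treated arrays lay above both DMSO arrays for 22 members (30.0% of all genes). Beside IFI6 and MX2 (1.65 ± 0.42) the rises over 1 were HERC5, PARP12, IFITM1 and IRF9. Against the other 6 lines 3 members changed more (7.24% of all genes), HERC5 (1.41 ± 0.15), PARP12 and UBE2L6, and 14 less (4.11%). Of these 14, 4 were near the floor in both groups of MOLM13, where no change could be measured. MOLM13 had 11 members near the floor in both groups, as many as SKNO1 and more than the other lines.

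SKNO1 and NOMO1 had few calls. In SKNO1 4 members were called higher (2.96% of all genes), LGALS3BP, ISG15, IFIT2 and IFI35, and 1 lower (3.12%), HERC5; both treated arrays lay above for 13 members (19.3% of all genes). The 4 became 1 without the second DMSO array and 2 without either GSK862 array of SKNO1, and HERC5 was not called without the first array of either treatment. Against the other 6 lines ISG15 changed more (0.59 ± 0.17), 1 member (3.49% of all genes), and 20 changed less (3.99%), 3 of them near the floor in both groups. In NOMO1 the 5 called higher (4.21% of all genes) were IFITM1, IFITM3, DDX60L, IFITM2 and PLSCR1, and 0 were lower (7.55%; 3 at an unadjusted p under 0.05, limma). Treated arrays lay above for 15 members there (21.1% of all genes), and 3 were called without the second GSK862 array of NOMO1. IFITM1 changed more than in the other 6 lines (1.14 ± 0.21), 1 member (2.34% of all genes), and 14 changed less (3.52%), 4 of them near the floor in both groups. Both lines had 0 members called by limma on their own 4 arrays, where 0 of all genes were called in either line. At an unadjusted p under 0.05 (limma) 7 members were higher in SKNO1 and 8 in NOMO1, with 6 lower in each.

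In SHI1 1 member was called higher (2.52% of all genes), EPSTI1, and 2 lower (0.899%), OAS1 and HERC5. Of 46 changes 23 were above 0 and 23 below, and both treated arrays lay above both DMSO arrays for 11 members (29.1% of all genes). Compared with the other 6 lines 0 members changed more (2.64% of all genes; 0 at an unadjusted p under 0.05, limma) and 15 less (1.69%), LGALS3BP among them, which was near the floor in both groups of SHI1, and OAS1 (-2.74 ± 0.28), IFIT1 (-2.33), OAS2 (-1.93) and ISG15 (-1.17). EPSTI1's call was lost without either DMSO array or the first GSK862 array of SHI1, and without any 1 of its 4 arrays 1 member was lower. Without either DMSO array of NOMO1 2 were higher in SHI1, since the lines share the spread. On its own 4 arrays SHI1 had 0 members and 0 of all genes called by limma. At an unadjusted p under 0.05 (limma) 6 members were higher there and 7 lower.

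**Figure D4:**
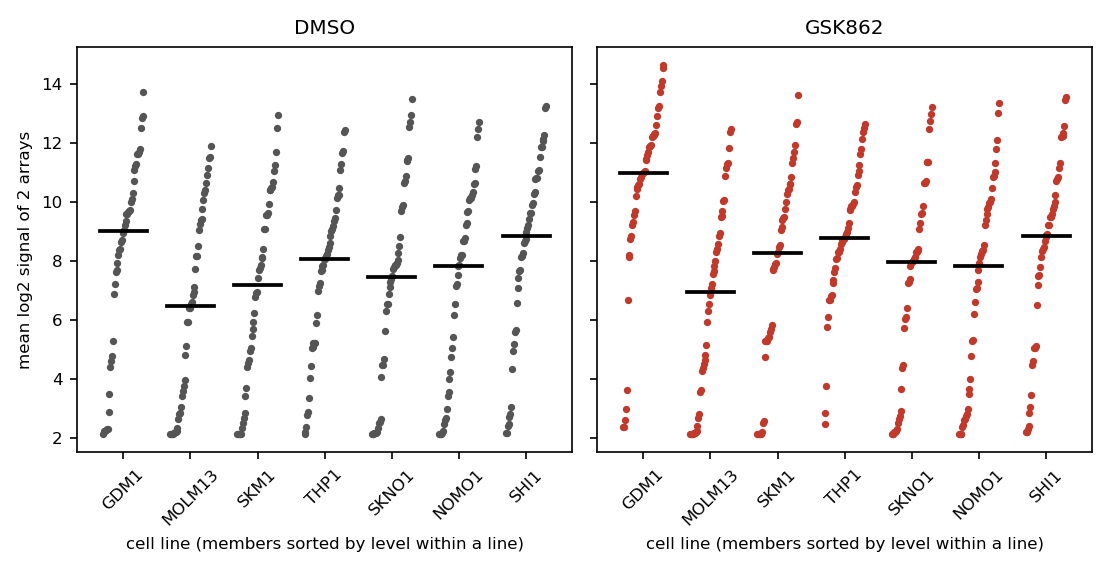
Mean log2 signal of 2 arrays for each of the 46 members, sorted by level within a line, in DMSO (left) and after GSK862 (right); black bars are medians over the members. GDM1 and SHI1 have like medians in DMSO, 9.01 and 8.86, and differ after GSK862, at 11.0 and 8.85.

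The starting levels differed between lines for 45 of 46 members (F-test on the DMSO arrays), as for 97.0% of all genes. The median DMSO signal over the members was 9.01 in GDM1, 8.86 in SHI1, 8.07 in THP1, 7.85 in NOMO1, 7.44 in SKNO1, 7.19 in SKM1 and 6.47 in MOLM13. The line with the highest DMSO level was SHI1 for 16 members and GDM1 for 15. SHI1 and GDM1 thus had close medians before treatment, and 1 and 41 members called higher after it. SHI1 also had 2 called lower and GDM1 0. USP18 read 8.71 and 8.54 in SHI1 and 8.38 and 8.40 in GDM1 in DMSO. After GSK862 it read 8.42 and 8.23 in SHI1 and 10.57 and 10.64 in GDM1. IFIT1, IFIT2, IFIT3 and ISG15 were each highest in SHI1 in DMSO and highest in GDM1 after GSK862.

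Set against the mean of the other 6 lines in DMSO, GDM1 had 29 members higher (35.1% of all genes) and 10 lower (39.4%), and SHI1 32 higher (35.6%) and 7 lower (32.3%). MOLM13 had 7 higher (33.3%) and 29 lower (35.3%). SKM1 had 10 higher (35.8%) and 23 lower (31.8%), and SKNO1 14 higher (36.9%) and 23 lower (37.1%). NOMO1 had 14 higher (36.4%) and 22 lower (35.8%), and THP1 17 higher (36.6%) and 11 lower (33.7%). The spread of a member over the lines was wider after GSK862 than in DMSO for 33 of 46 members, as for 56.9% of all genes, and the median range grew from 4.06 to 5.20. Among the ranges that narrowed were those of TRIM22 (7.43 to 5.71) and XAF1 (8.65 to 6.98), whose lowest line rose most.

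**Figure D5:**
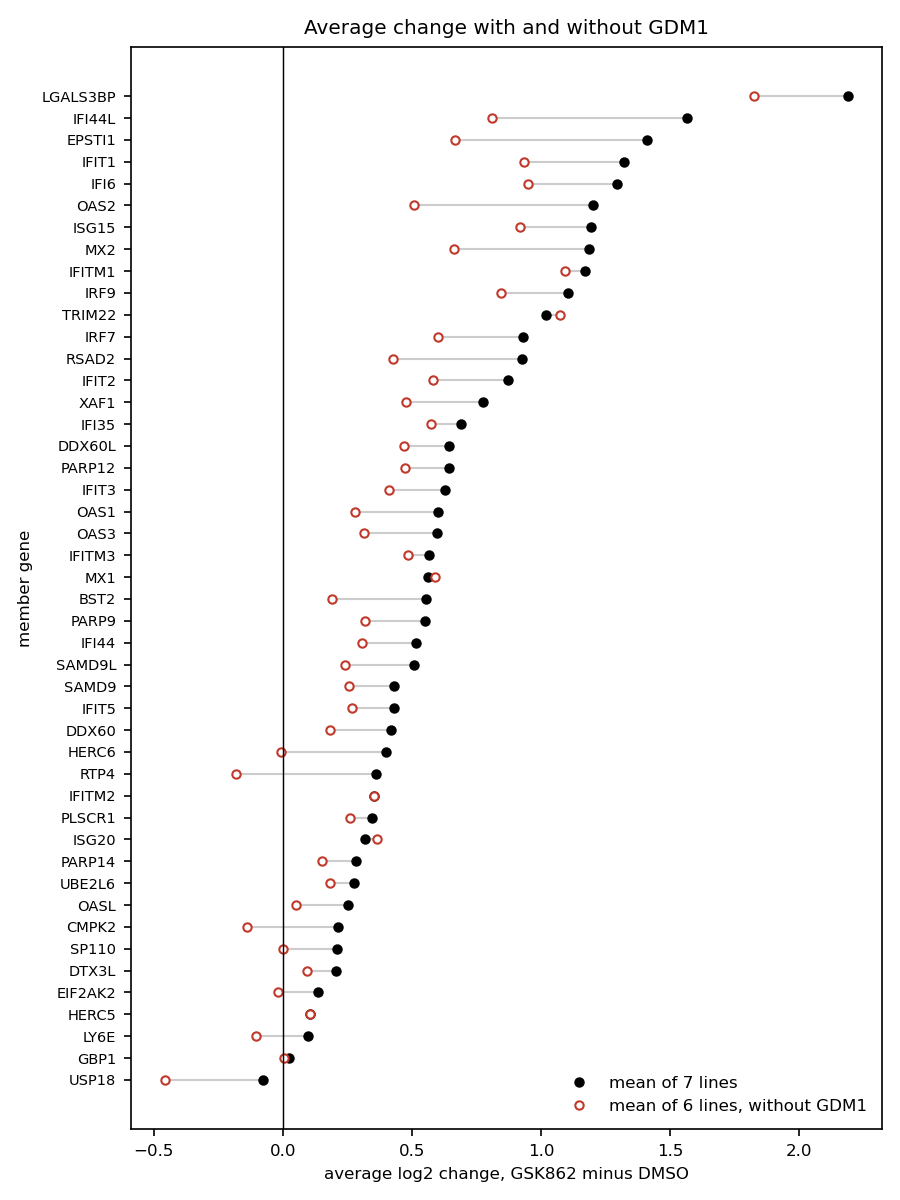
Average log2 change of each member over 7 lines (black) and over 6 lines without GDM1 (open red), members ordered by the first. Most points move left; HERC6, EIF2AK2, LY6E, CMPK2 and RTP4 move below 0, and IFITM1 and IFITM2 stay close to their value.

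None of 21 listed interferon genes was analysed here. For the counts on average below, 23.2% of all genes were called higher and 28.6% lower. Of 9 receptor and kinase genes 6 rose and 0 fell on average: IL10RB, a receptor chain for interferon lambda and interleukins, by 0.46 ± 0.04, TYK2 by 0.27 ± 0.03 and JAK2 by 0.23 ± 0.08. The type I receptor chains IFNAR1 (0.09 ± 0.07) and IFNAR2 (-0.06 ± 0.04) were not called on average or in any line. Of 6 further STAT and IRF factors 3 rose and 0 fell: IRF8, a myeloid factor, by 0.44 ± 0.13, STAT3 by 0.23 and IRF2 by 0.13. IRF8 was called in SHI1 only (2.19), the line with 1 member called higher. Among 7 feedback regulators the phosphatase PTPN6 rose (0.39 ± 0.03, called in 5 lines) and PTPN11 fell by 0.11.

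Of 8 measured targets of interferon gamma 3 rose, GBP5 by 1.07 ± 0.15, TAP1 by 0.36 and PSMB9 by 0.28. Another 2 fell, WARS1 by 0.26 and the chemokine CXCL10 by 0.11. Of all genes 23.2% rose and 28.6% fell on average, and 8 genes are too few to set this list apart. CXCL10 was at the floor in 5 lines, and fell in NOMO1 by 0.76 from a DMSO level of 9.10. Of 11 genes of RNA and DNA sensing 5 rose, led by TLR8 (0.73 ± 0.11), IFI16 (0.56) and IFIH1 (0.33), and 1, CGAS, fell by 0.21. TLR8 was called only in MOLM13 (3.83) and SKM1 (1.00), and was near the floor in GDM1, THP1, SKNO1 and SHI1. IFI16 was called in SKM1 only (2.47). The double-stranded RNA sensor IFIH1 was called in GDM1 (1.38) and THP1 (0.76), the lines with the most members called.

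Markers of cell identity also changed. Of 10 measured myeloid markers 8 rose on average and 0 fell, where 23.2% and 28.6% of all genes did. The largest rises were those of ANPEP (1.99 ± 0.10), CD14 (1.34) and ITGAM (1.03). Mean signal of the 10 ranged from 8.51 to 11.2 over the DMSO groups and from 9.23 to 11.7 over the GSK862 groups. ANPEP rose most in MOLM13 (6.45), where 12 members were called. CD14 rose by 4.36 in SKM1 and stayed at the floor in GDM1. Of 3 lymphocyte markers CD3D rose (0.75), and its change in GDM1 was -0.69, not called. Of 2 markers of plasmacytoid dendritic cells, the main makers of type I interferon, TCF4 fell by 0.23 and IL3RA was not called; CLEC4C and LILRA4 were not analysed here. ITGA2B, of megakaryocytes, rose by 0.75, and 3 of 4 epithelial and stromal markers rose, KRT18 by 0.90. The part of these markers in the members' changes was not tested.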

How the data were processed

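Total RNA of 7 AML lines was measured on 28 arrays, 2 per line and treatment. The deposited table holds log2 signals of 27306 probe sets; how the authors corrected background, summarised, normalized and filtered them is not given in the sources used here, and limma is named without a role, per the submitters' processing notes. Values were used as deposited. The platform annotation gave 1 symbol to 22580 probe sets, several to 1098 and none listed to 3628; the first were reduced to 11676 genes by the highest mean.

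Each gene was fitted with limma 3.58.1 (lmFit, eBayes; R 4.3.3) over 14 groups, with 14 residual and 2.28 prior degrees of freedom, and contrasts were taken for each line, their average, each line against the other 6, and F-tests between lines. p-values were adjusted over all genes by the Benjamini-Hochberg method. The pairing of duplicates was checked and the script was tested on simulated data. The series design calls the duplicates biological but does not name separate cultures, so p-values measure the spread between these samples.

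All members could be named. Values on every array were given for the regulators, for the member of each role with the largest average change, for the 6 members with the smallest F-test p and for the leading calls of each line; of the pathway lists, the 3 largest average changes were named. The members and lists were chosen with earlier results of these data known. Alternatives covered normalization, filters, probe sets, variance models, replicate blocks, units and single arrays or lines left out. Promoters came from RefSeq (GRCh38.p14) and figures from matplotlib 3.10.9 (Python 3.11.15).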

Additional observations from a re-analysis of the deposited data

Results flagged for a closer look

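The change after GSK862 differed between the 7 lines for single members by the moderated F-test of limma. The adjusted p was 1.70e-07 for OAS1, 1.73e-07 for XAF1, 2.78e-07 for EPSTI1, 2.80e-07 for OAS2, 1.58e-06 for ISG15 and 3.16e-06 for IFI44L. OAS1 rose in GDM1 and THP1 and fell in SHI1, and XAF1 rose in GDM1 and SKM1.

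Each line's change was also tested against the mean of the other 6 lines. The share of all genes called the same way stands in brackets. In GDM1 39 members changed more (8.88%). In MOLM13 3 members changed more (7.24%), HERC5, PARP12 and UBE2L6, and 14 less (4.11%), 4 of them near the floor in both groups. In SKM1 6 changed more (7.25%) and 4 less (4.83%), the latter all near the floor in that line. In THP1 8 changed more (1.42%), among them OAS1 and TRIM22. In SKNO1 1 changed more (3.49%), ISG15, and 20 less (3.99%), 3 of them near the floor. NOMO1 had 1 that changed more (2.34%), IFITM1, and 14 less (3.52%), 4 of them near the floor. In SHI1 15 changed less (1.69%), 1 of them near the floor. As shares of the 46 members, the counts of more in MOLM13, SKNO1 and NOMO1 were 6.52%, 2.17% and 2.17%, no higher than those of all genes. GDM1 is part of the other 6 for every line but itself. Groups of 2 arrays were too small to look for single outlying arrays.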

How the results depend on the processing

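The members called higher on average numbered 40, and 40 to 41 when any 1 array was left out. They numbered 25 without probe sets ending in _x_at or _s_at, where 32 members were left. With a change of at least 1 asked for they numbered 11, and with lines as units 4 (2.54% of all genes). The count lower on average was 1 without those probe sets and 1 without GDM1 (25.0% of all genes). Without those probe sets the counts higher were 6 in MOLM13, 12 in SKM1, 19 in THP1, 2 in SKNO1 and 0 in NOMO1, and 1 was lower in SHI1. On a line's own 4 arrays the counts higher were 7 in MOLM13 and 0 in SKM1, THP1, SKNO1, NOMO1 and SHI1. The counts lower there were 1 in MOLM13 and 0 in SKNO1 and SHI1. Of all genes these fits called 2056 in MOLM13, 53 in SKM1, 2 in THP1 and 0 in SKNO1, NOMO1 and SHI1. The unadjusted counts stand in the report for the lines at 0. With a change of at least 1 asked for, the counts higher were 6 in MOLM13, 14 in SKM1, 19 in THP1 and 1 in NOMO1, and the counts lower 1 in MOLM13, 0 in SKNO1 and 1 in SHI1. At an adjusted p under 0.01 they were 1 higher and 0 lower in SKNO1, 3 higher in NOMO1 and 1 lower in SHI1. In SHI1 0 members were higher with dim genes left out (41 members left), and 2 higher and 1 lower with a variance trend. Calls over all genes were counted only for lines as units, GDM1 left out and a line's own 4 arrays. The other counts of this section thus do not show whether members lost calls faster than other genes.

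With any 1 array left out the counts were 1 to 3 lower in MOLM13, 18 to 30 higher in THP1, 1 to 4 higher and 0 to 1 lower in SKNO1, 3 to 5 higher in NOMO1, and 0 to 2 higher and 1 to 2 lower in SHI1. The averages that changed sign were those of USP18 (0.16 without MOLM13, 0.0063 without NOMO1, -0.16 to 0.010 with 1 array left out), HERC5 (-0.10 without MOLM13) and GBP1 (-0.019 without THP1, -0.014 to 0.063 with 1 array left out). Without GDM1 those of HERC6 (-0.0060), EIF2AK2 (-0.017), LY6E (-0.10), RTP4 (-0.18) and CMPK2 (-0.14) also did. DDX60L, read from its other probe set, was -0.12 on average, -0.50 in MOLM13, -0.082 in SKM1 and -0.58 in NOMO1. The cause of these shifts was not tested beyond the construction of each alternative. Of 7033 values of single members under the alternatives, 6675 kept direction and side of the threshold, 319 lost the threshold, 21 gained it and 18 changed sign.

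With the replicate number as a block over all lines 40 members were higher on average, and with a replicate block within each line 41; under the latter block 8 were higher in NOMO1, 3 higher in SHI1 and 0 lower in SKNO1. Within a line the correlation of the duplicates' differences between treatments was 0.391 in SKNO1, 0.372 in SKM1 and 0.309 in NOMO1. In the other lines it lay from -0.0974 in GDM1 to 0.0856 in THP1, and between lines 8 of 84 pairs were above 0.1. The main fit did not pair samples by number. Whether the numbers pair samples in SKNO1, SKM1 and NOMO1 cannot be told from these values. Nor can it be told in GDM1 and THP1, where replicate 2 read higher for most members under both treatments. Those members numbered 37 in DMSO and 39 after GSK862 in GDM1, and 43 and 42 in THP1. A spread estimated without SKM1, chosen after seeing the data, gave 43 members higher in GDM1. Signals under 6, many repeated between arrays, limit what can be read for members near the floor.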
